A study of Rattus norvegicus with 12 samples.

Results

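The interaction of bladder outlet obstruction and Eviprostat in the rat prostate is the change that the drug made in obstructed rats minus the change that it made in sham-operated rats. All 12 arrays of the series entered it, 3 in each of 4 groups, and it was computed for each of 36102 probes with usable signal and read per gene for 14633 named genes. The members described most closely are the genes on which the drug acted in opposite directions in the 2 settings: the interaction and both drug effects had an adjusted p under 0.05 and the drug effects had opposite signs. There were 58 such genes lower with Eviprostat in obstructed rats and higher with it in sham rats, which is 0.396% of the genes tested, and 11 genes of the reverse pattern, which is 0.0752%.

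The groups were obstruction with Eviprostat, obstruction with vehicle, sham operation with Eviprostat and sham operation with vehicle, all in male rats of 10 weeks. Obstruction was partial and was made with a ring around the urethra near the bladder. Eviprostat, a phytotherapeutic preparation for benign prostatic hyperplasia, was given at 18 mg/kg in a dose and 36 mg/kg in a day for 5 days, and the vehicle was 0.1% Tween 80. Prostates were taken 2 h after the last dose. Tissue of the 5 to 6 animals of a group was pooled, so the 3 arrays of a group do not show the spread between animals and p-values measure the spread between arrays only. Obstructed rats were first dosed on the day following surgery and sham rats 5 days after theirs, which means that effects of the operation cannot be told apart from those of time since surgery.

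Each array carried its own group's RNA in Cy5 and sham/vehicle RNA in Cy3, with no dye swap, and a value below is a log2 ratio of Cy5 to Cy3 unless it is called a difference. An array of each group lay on each of 3 slides, always at the same position, and slide position cannot be told apart from group. Per the labels, 1500 ng of RNA was labelled for sham/vehicle and 300 ng for the other groups. The amount labelled therefore cannot be told apart from group in the sham drug effect or in the interaction. The share of spots whose Cy5 signal stood well above background was 70.9% to 88.4% per array. Because whole prostate was used, fewer cells of a type and less RNA per cell cannot be told apart. Probasin (Pbsn) and Tmprss2, which mark prostate epithelium, were well above background in every group, on all arrays for Tmprss2 and on all but 1 obstruction/vehicle array for Pbsn.

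The prostate and the seminal vesicle are neighbouring androgen-dependent glands that add different secretions to semen. The seminal vesicle secretes the Svs proteins, which form the copulatory plug in rodents, and the rodent prostate secretes probasin, secretoglobins, spermine binding protein and kallikreins. Protease inhibitors of the serpin, Kazal and WAP families are secreted into the same fluid and restrain its proteases. A drug effect that reverses sign between settings appears in the interaction whether or not the drug has an average effect.

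Sequences of the array probes show which transcripts the largest and the least separable values belong to. Probe positions follow the array design, which uses rat build rn3. The Svs5 probe lies on the plus strand at chr3:155171865-155171924 and carried the most negative interaction of all named genes, and the Wfdc5 probe lies on the minus strand of the same stretch at chr3:155023361-155023420 and went the other way. The Gys2 probe, on the minus strand at chr4:180229197-180229256, carried the most positive interaction. They read 5′ to 3′ as follows.
Svs5: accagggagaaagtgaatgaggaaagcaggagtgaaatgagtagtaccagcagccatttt
Wfdc5: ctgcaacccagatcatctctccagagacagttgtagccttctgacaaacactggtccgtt
Gys2: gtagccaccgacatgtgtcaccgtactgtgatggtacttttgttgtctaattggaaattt

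Kallikrein genes are related copies, and 2 pairs of their probes are similar enough that they may not be separate measurements. Binding of a partner's transcript was not tested. The Klk1c2 probe, on the minus strand at chr1:94550409-94550468, overlaps the Klk1c9 probe, on the plus strand at chr1:94660809-94660868, over 48 bases at 91.7% identity. Klk1c8, at chr1:94609161-94609220, and Klk1, at chr1:94706852-94706911, both on the plus strand, overlap over 56 bases at 83.9% identity. Capitals mark the bases of the Klk1c2 and Klk1c8 probes that differ from the partner or lie outside the overlap.
Klk1c9: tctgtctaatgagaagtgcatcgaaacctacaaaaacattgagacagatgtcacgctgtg
Klk1c2: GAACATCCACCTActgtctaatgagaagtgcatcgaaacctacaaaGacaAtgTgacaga
Klk1: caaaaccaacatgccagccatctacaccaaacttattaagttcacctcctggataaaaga
Klk1c8: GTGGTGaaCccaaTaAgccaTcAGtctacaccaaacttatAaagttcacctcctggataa
Among pairs of Svs probes the highest identity was 48.1%, with no shared run over 8 bases.

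Across the arrays the interaction was called for 3127 probes, 8.66% of those tested, in limma with Benjamini-Hochberg adjustment. It was higher for 1363 (3.78%) and lower for 1764 (4.89%), where lower means that the drug effect in obstructed rats lay below that in sham rats. By gene it was called for 1494, or 10.2%: 484 higher (3.31%) and 1010 lower (6.9%). Eviprostat changed 1813 genes in obstructed rats (12.4%; 4.33% up and 8.06% down) and 212 in sham rats (1.45%; 1.2% up and 0.246% down). With the slide as a block these were 4116 in obstructed rats and 878 in sham rats, 603 of them up and 275 down. Of the 1494 genes, 864 (5.9% of genes) had a fitted drug effect below 0 in obstructed rats and above 0 in sham rats, 444 (3.03%) had the reverse and 186 (1.27%) had the same sign in both, but only the 58 and the 11 passed all 3 tests with opposite signs. With the replicate number, which is the slide, as a block the interaction was called for 3703 genes, and the opposite-direction genes numbered 233 and 93, all of the 58 and all of the 11 among them. Leaving out single arrays gave 35 to 128 and 4 to 32 genes, with the highest counts without obstruction/vehicle replicate 2 and the lowest without sham/Eviprostat replicate 2, and median centring in place of loess gave 25 and 0, with 21 of the 58 and 0 of the 11 shared.

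**Figure D1:**
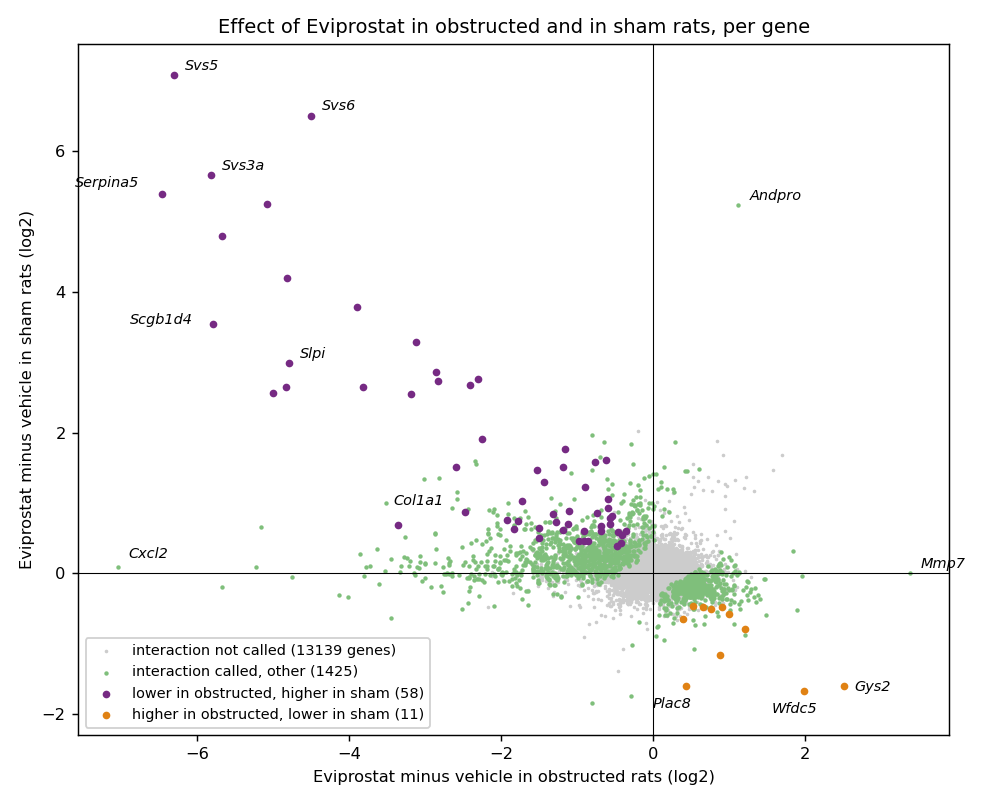
Each point is a named gene, with the log2 difference of Eviprostat minus vehicle in obstructed rats on the horizontal axis and in sham rats on the vertical axis. The 58 genes at upper left reach -6.31 and 7.08 for Svs5, and the 11 genes at lower right reach 2.51 and -1.59 for Gys2.

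Each of the 58 genes was lower with Eviprostat than with vehicle in obstructed rats and higher with Eviprostat than with vehicle in sham rats. Their median log2 ratio was 0.09 with Eviprostat and 1.97 with vehicle in obstructed rats, and 0.94 with Eviprostat and -0.04 with vehicle in sham rats. Obstruction/vehicle was the highest of the 4 groups for 46 of them and sham/Eviprostat for 12, and obstruction/vehicle lay above sham/vehicle for 56, the exceptions being Ampd1 and Mybpc2. The obstruction/Eviprostat mean lay within 0.5 of the sham/vehicle mean for 41. Their median drug effect was -1.51 in obstructed rats and 1.04 in sham rats, and 26 of them differed at least 2-fold in both settings. The drug effect was the larger in obstructed rats for 37 and in sham rats for 21. All 58 had the same signs on each of the 3 slides. These summaries describe genes chosen on the same contrasts and support nothing by themselves.

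Seminal vesicle secretory genes led the list. Of 10 measured genes of a seminal vesicle and coagulating gland list, 8 fell with Eviprostat in obstructed rats, rose with it in sham rats and had a called interaction, against 0.396% of all genes. The mean log2 ratio of the list ran from 0.39 to 0.64 on the obstruction/Eviprostat arrays and from 3.98 to 4.54 on the obstruction/vehicle arrays. It ran from 3.75 to 3.81 on the sham/Eviprostat arrays and from 0.02 to 0.05 on the sham/vehicle arrays. The sham/vehicle pool was thus at the ratio of 0 that identical RNA gives, and both high pools stood far from both low ones. Whether seminal vesicle tissue was carried into some pools was not tested.

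Svs5, a seminal vesicle secretory protein, had log2 ratios of 0.52, 1.99 and 2.05 with Eviprostat and 7.93, 7.43 and 8.15 with vehicle in obstructed rats. In sham rats it had 6.65, 7.33 and 7.43 with Eviprostat and -0.05, 0.04 and 0.20 with vehicle. The groups did not overlap in either setting, and the 3 obstruction/Eviprostat arrays still lay above the sham/vehicle arrays. Eviprostat lowered Svs5 by a log2 difference of -6.31 ± 0.35 (SE, n = 3 arrays each) in obstructed rats, which is 79.5-fold, with limma's adjusted p = 4.68e-07. It raised Svs5 by 7.08 ± 0.35 in sham rats, which is 135-fold, with adjusted p = 8.06e-07. The interaction was -13.39 ± 0.50, with adjusted p = 1.89e-08, and ran from -14.11 to -12.73 over the slides.

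Svs6, of the same family, had 2.46, 2.41 and 2.55 with Eviprostat and 7.82, 6.41 and 6.71 with vehicle in obstructed rats. Sham rats had 7.22, 6.41 and 6.50 with Eviprostat and 0.39, -0.07 and 0.29 with vehicle. As with Svs5, the drug-treated obstructed pool was low but not at the sham/vehicle level. Svs3a had an interaction of -11.48 ± 0.19, Svs3b of -5.74 ± 0.25 and Svs1 of -5.57 ± 0.29. Svs7 and Spink1l, a Kazal-type protease inhibitor, passed the same tests but have only a bound in sham rats. No sham/vehicle array had either well above background, and their Cy5 levels with Eviprostat in sham rats were at least 63.7-fold and at least 37.2-fold higher, with adjusted p = 1.14e-05 and 8.51e-06 for the fitted ratios. The other measured members, Semg1 and Tgm4, were not called: their interactions were 0.09 and 0.09, with adjusted p = 0.904 and 0.739.

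Svs4 was an exception in kind. Its ratios with Eviprostat and vehicle were 0.15, 0.04 and 0.17 against 5.61, 4.75 and 5.03 in obstructed rats, and 3.22, 2.73 and 2.76 against 0.13, 0.44 and 0.47 in sham rats. Its mean log2 Cy5 level, however, was 17.82, 18.57, 18.22 and 17.97 in the groups from obstruction/Eviprostat to sham/vehicle, and Cy5 was saturated on 2 obstruction/vehicle, 2 sham/Eviprostat and 1 sham/vehicle arrays. Its Cy3 level was 17.70 on obstruction/Eviprostat, 13.44 on obstruction/vehicle, 15.32 on sham/Eviprostat and 17.62 on sham/vehicle arrays, although Cy3 carried the same RNA throughout. On Cy5 alone its interaction was -1.0 with adjusted p = 0.401.

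The Cy3 channel also moved at other Svs probes. At Svs5 it was 7.21 on obstruction/Eviprostat, 10.49 on obstruction/vehicle, 9.62 on sham/Eviprostat and 7.22 on sham/vehicle arrays, higher in the groups whose Svs5 ratio was also high. Of the 58 genes, 15 had Cy3 at least 2-fold higher on obstruction/vehicle than on sham/vehicle arrays, beside 79 of all 36102 probes. On sham/Eviprostat arrays 6 of the 58 had it so, beside 6 of all 36102 probes. On Cy5 alone the interaction was -19.07 for Svs5, -18.15 for Svs6, -16.26 for Svs3a, -15.16 for Svs1 and -11.37 for Svs3b, each larger in size than by the ratio. Of the 58 genes, 51 passed all 3 tests on Cy5 alone. The 7 that did not were Svs4, Gapdh, Actb, Actg1, Col1a2, Ltbp4 and Tubb3, and the last 6 were named after their values were seen.

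**Figure D2:**
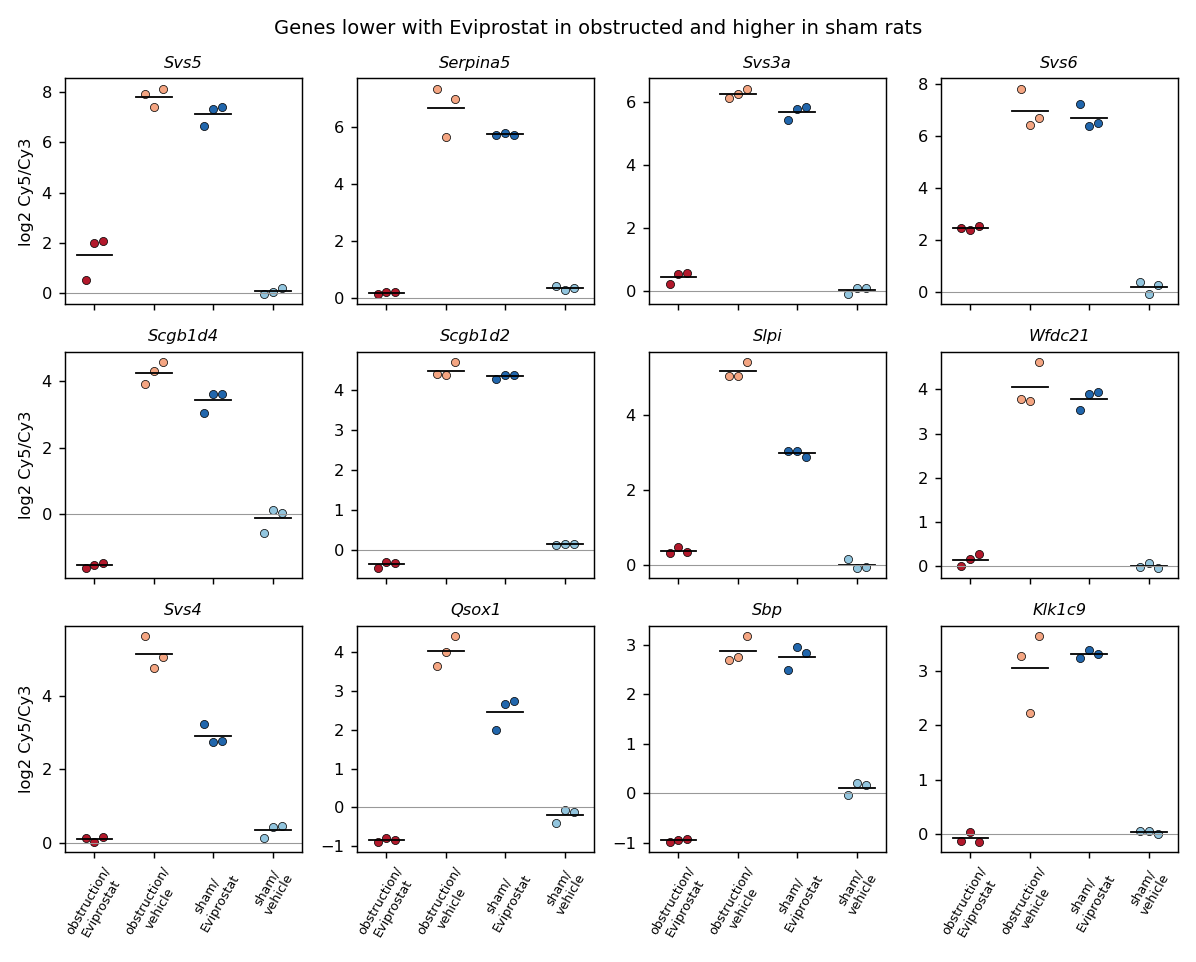
Log2 Cy5/Cy3 on each array (points, 3 per group) and group means (bars) for the 12 genes of the rule with the largest interactions among those lower with Eviprostat in obstructed and higher in sham rats. In every panel the obstruction/vehicle and sham/Eviprostat arrays lie above all obstruction/Eviprostat and sham/vehicle arrays, but the genes were chosen on these same contrasts. The Svs5 means are 1.52, 7.83, 7.14 and 0.06 from left to right.

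The stretch of chromosome 3 around Svs5 held both directions. Within 300 kb on either side, 16 named genes were measured. Of these, 8 had a lower and 1 a higher interaction, beside 6.9% and 3.31% of all genes. Svs3b, Svs4, Svs3a, Svs6, Svs5 and Slpi passed as opposite-direction genes, beside 0.396% of all genes, but Svs4 did not pass on Cy5 alone. Slpi-ps1, a pseudogene copy of Slpi, was lower in obstructed rats only. Wfdc5, on the far side of the Svs genes from Slpi, was the only higher one, at an interaction of 3.65. Semg1 lies between Wfdc5 and Svs3b and was not called, nor were Tomm34, Stk4, Kcns1, Matn4, Rbpjl and Pigt, and Sdc4, a cell surface proteoglycan, was lower in obstructed rats only (interaction -2.08, adjusted p = 1.46e-05). The genes of this stretch were chosen by their place after values were seen.

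**Figure D3:**
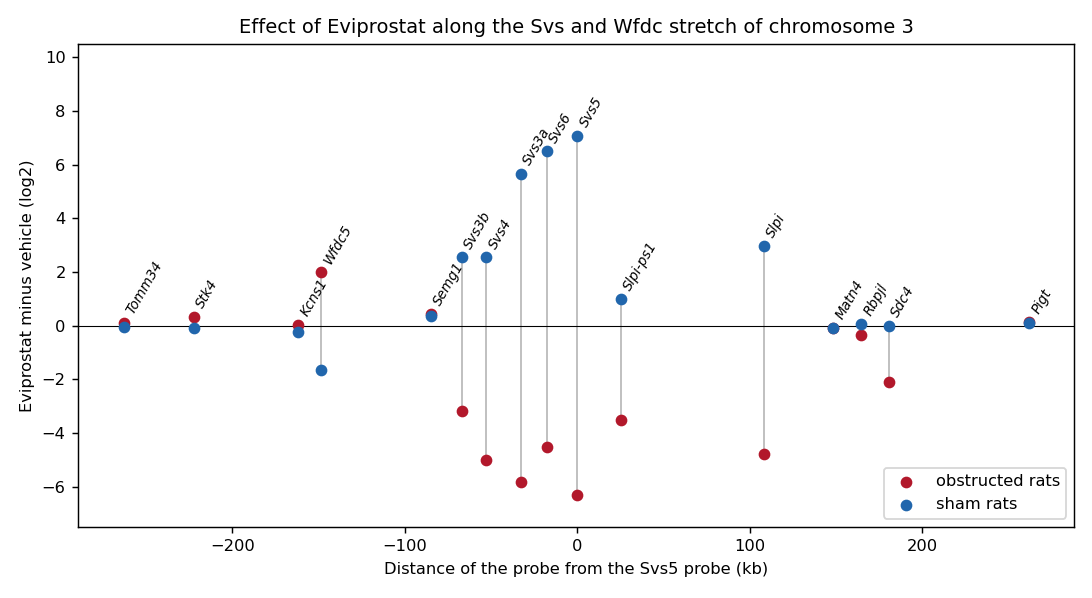
Log2 difference of Eviprostat minus vehicle in obstructed (red) and sham (blue) rats for the 16 named genes measured within 300 kb of the Svs5 probe, by distance from it in kb; lines join the values of a gene. From Svs3b to Slpi the red points lie below 0 and the blue points above it, and Wfdc5 at left has the order reversed, at 1.98 and -1.67.

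The protease inhibitor Serpina5, or protein C inhibitor, had 0.12, 0.20 and 0.18 with Eviprostat and 7.33, 5.64 and 6.96 with vehicle in obstructed rats, and 5.70, 5.77 and 5.71 with Eviprostat and 0.39, 0.27 and 0.34 with vehicle in sham rats. Its interaction was -11.86 ± 0.43. Slpi, an inhibitor of neutrophil elastase, had 0.33, 0.48 and 0.36 against 5.05, 5.06 and 5.41 in obstructed rats, and 3.05, 3.05 and 2.89 against -0.08 to 0.17 in sham rats, with Eviprostat first in each pair. Its drug effect was -4.79 ± 0.11 in obstructed rats and 2.98 ± 0.11 in sham rats. Wfdc21, another WAP domain protein, had an interaction of -7.68 ± 0.28.

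Secreted proteins of the prostate were divided. Among 32 measured genes of a prostate secretory epithelium list, the interaction was lower for 7, higher for 9 and not called for 16, beside 6.9% and 3.31% of all genes, and the list median was -0.01. The lower ones included the secretoglobins Scgb1d4, Scgb1d2 and Scgb2a1, the spermine binding protein Sbp, the calcium channel Trpv6 and the kallikrein Klk1, all of them opposite-direction genes. The higher ones included Wfdc3, Pbsn and Tmprss2. These rose with Eviprostat in obstructed rats by 1.95 ± 0.11, 1.46 ± 0.15 and 1.47 ± 0.19 and had -0.04, -0.09 and -0.08 in sham rats. Under median centring their interactions kept their sign but were not called, with limma's adjusted p of 0.0802, 0.276 and 0.444. The interactions of the 6 lower genes named here were still called under it. A Pbsn spot of 1 obstruction/vehicle array was dropped from the fit, and Cy5 was saturated there on 2 obstruction/Eviprostat and 1 sham/Eviprostat arrays. Secretory genes of the prostate moved both ways in obstructed rats, and the 6 of the 32 that rose in sham rats were the 6 opposite-direction genes.

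Scgb1d4 had -1.61, -1.51 and -1.47 with Eviprostat and 3.91, 4.31 and 4.57 with vehicle in obstructed rats. The sham arrays had 3.04, 3.62 and 3.62 with Eviprostat and -0.54, 0.13 and 0.05 with vehicle. Here the drug-treated obstructed pool lay below the sham/vehicle pool, as it did for Scgb1d2 (means -0.35 and 0.13) and Sbp (means -0.95 and 0.10). The interaction of Scgb1d4 was -9.34 ± 0.30 with adjusted p = 6.73e-09, from -9.60 to -9.09 over the slides, and its Cy3 level did not move with the groups: 12.94, 12.74, 12.82 and 12.92. Scgb1d2 had an interaction of -9.02 ± 0.14 and Sbp of -6.47 ± 0.20.

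Qsox1, a sulfhydryl oxidase that forms disulfide bonds in secreted proteins, had -0.88, -0.78 and -0.83 with Eviprostat and 3.63, 4.00 and 4.39 with vehicle in obstructed rats, and 2.00, 2.65 and 2.73 with Eviprostat and -0.39, -0.06 and -0.12 with vehicle in sham rats. Klk1c9, a glandular kallikrein, had -0.13, 0.04 and -0.14 against 3.27, 2.23 and 3.65 in obstructed rats, and 3.25, 3.39 and 3.32 against 0.05, 0.06 and 0.01 in sham rats, with Eviprostat first. Its sham/Eviprostat arrays reached the level of the obstruction/vehicle arrays. Klk1c2 ran alongside with an interaction of -5.73 ± 0.33, and its probe shares most of its bases with that of Klk1c9, as printed above. Klk1c8 and Klk1, the other similar pair, had -5.09 ± 0.63 and -2.73 ± 0.22, and Klk1c6 -2.12 ± 0.32. All 5 lie within chr1:94526123-94706911.

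Of the 58 genes, 33 were in a list and 25 in none. Nerve and Schwann cell genes contributed 5, among them Prph, Uchl1 and Tubb3 of neurons and Pmp22 of myelin. Of 24 measured genes of that list the interaction was lower for 12 and higher for 0, beside 6.9% and 3.31% of all genes. Eviprostat raised 9 in sham rats, beside 1.2%, or 14 with the slide as a block, beside 603 of all 14633 genes. Prph, a neuronal intermediate filament, had 1.26, 1.63 and 1.57 with Eviprostat and 2.74, 2.23 and 3.00 with vehicle in obstructed rats, and 1.69, 1.90 and 1.89 with Eviprostat and 0.21, -0.02 and -0.03 with vehicle in sham rats. The obstructed groups both lay above sham/vehicle. The list's mean ratio ran from 0.39 to 0.60 on obstruction/Eviprostat, 0.57 to 1.25 on obstruction/vehicle, 0.68 to 0.81 on sham/Eviprostat and -0.02 to 0.03 on sham/vehicle arrays.

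Smooth muscle genes contributed Myh11, Smtn, Tpm2 and Cnn1, and 10 of 17 measured genes of their list had a lower interaction and 1 a higher, beside 6.9% and 3.31% of all genes. Myh11, Smtn, Tpm2 and Cnn1 did not pass as opposite under median centring. Of 20 alternatives, Smtn and Cnn1 passed 19 each, and Myh11 and Tpm2 10 each. The drug effects on smooth muscle genes were small: Smtn, an actin-binding protein, had 0.04, 0.06 and 0.08 against 0.96, 0.84 and 1.11 in obstructed rats and 0.49, 0.38 and 0.48 against -0.02, -0.26 and -0.18 in sham rats, Eviprostat first. In skeletal muscle genes the drug effects had mostly the same sign. Eviprostat raised 17 of 26 in sham rats, beside 1.2% of all genes. In obstructed rats it raised 10 and lowered 2, beside 4.33% and 8.06% of all genes. The interaction was lower for 5, beside 6.9%, or 15 with the slide as a block, beside 2239 of all 14633 genes. The mean ratio of that list was -0.61 to -0.42 on obstruction/Eviprostat and -1.01 to -0.86 on obstruction/vehicle arrays, and 1.05 to 1.18 on sham/Eviprostat and -0.03 to 0.11 on sham/vehicle arrays. Only Ampd1, the muscle AMP deaminase, and Mybpc2, a myosin binding protein, fell in obstructed and rose in sham rats: Ampd1 by -0.62 ± 0.16 and 1.62 ± 0.16. Skeletal muscle thus stood highest in sham/Eviprostat, unlike the Svs genes, which were high in 2 pools. The part of muscle and nerve content in these results was not tested.

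Some glycolysis genes showed a smaller reversal. Among 29 measured genes of a hypoxia and glycolysis list, 16 had a lower interaction and 0 a higher, beside 6.9% and 3.31% of all genes. Slc16a3, Ldha, Aldoa and Gapdh passed as opposite-direction genes, beside 0.396% of all genes. None of these passed under median centring. Of 20 alternatives, Ldha passed 19, Gapdh 15, Aldoa 13 and Slc16a3 11. Slc16a3, a lactate exporter, had -0.22, -0.12 and -0.22 with Eviprostat and 3.09, 3.02 and 3.39 with vehicle in obstructed rats, and 0.40, 0.81 and 0.78 with Eviprostat and -0.25, 0.13 and 0.04 with vehicle in sham rats. Ldha, lactate dehydrogenase A, had 0.01, 0.12 and 0.10 against 2.03, 1.81 and 2.14, and 0.71, 0.62 and 0.65 against -0.09, -0.10 and -0.12. For both the obstructed effect was the larger. Gapdh, often used as a control gene, fell by 1.5 in obstructed rats and rose by 0.64 ± 0.11 in sham rats. Its interaction kept its sign under each of 20 alternatives. Gapdh was not called as opposite under median centring, on Cy5 alone, or without sham/Eviprostat replicate 2 or 3 or sham/vehicle replicate 3.

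The collagen genes Col1a1 and Col1a2 passed as opposite-direction genes. Col1a1 had 0.85, 0.40 and 0.31 with Eviprostat and 3.40, 2.65 and 2.93 with vehicle in obstructed rats, and 1.08, 0.67 and 0.65 with Eviprostat and -0.09, -0.04 and -0.09 with vehicle in sham rats. Its sham effect of 0.87 ± 0.19 had adjusted p = 0.0449, and it was not called as opposite under median centring or without any single sham array. Of 47 measured matrix genes the interaction was lower for 26 and higher for 1, Mmp7, beside 6.9% and 3.31% of all genes. Eviprostat raised 2 of the 47 in sham rats, Col1a1 and Col1a2, beside 1.2% of all genes, or 10 with the slide as a block, beside 603 of all 14633 genes. Jun of the immediate early list and Aurkb of the cell cycle list were the other listed members, at interactions of -2.00 ± 0.15 and -0.95 ± 0.13. Outside the lists, and named after their values were seen, Dnase2b, an acid endonuclease, had -5.08 ± 0.38, the chaperone Cryab -3.0 ± 0.23 and Fabp5, a fatty acid binding protein, -2.53 ± 0.17.

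**Figure D4:**
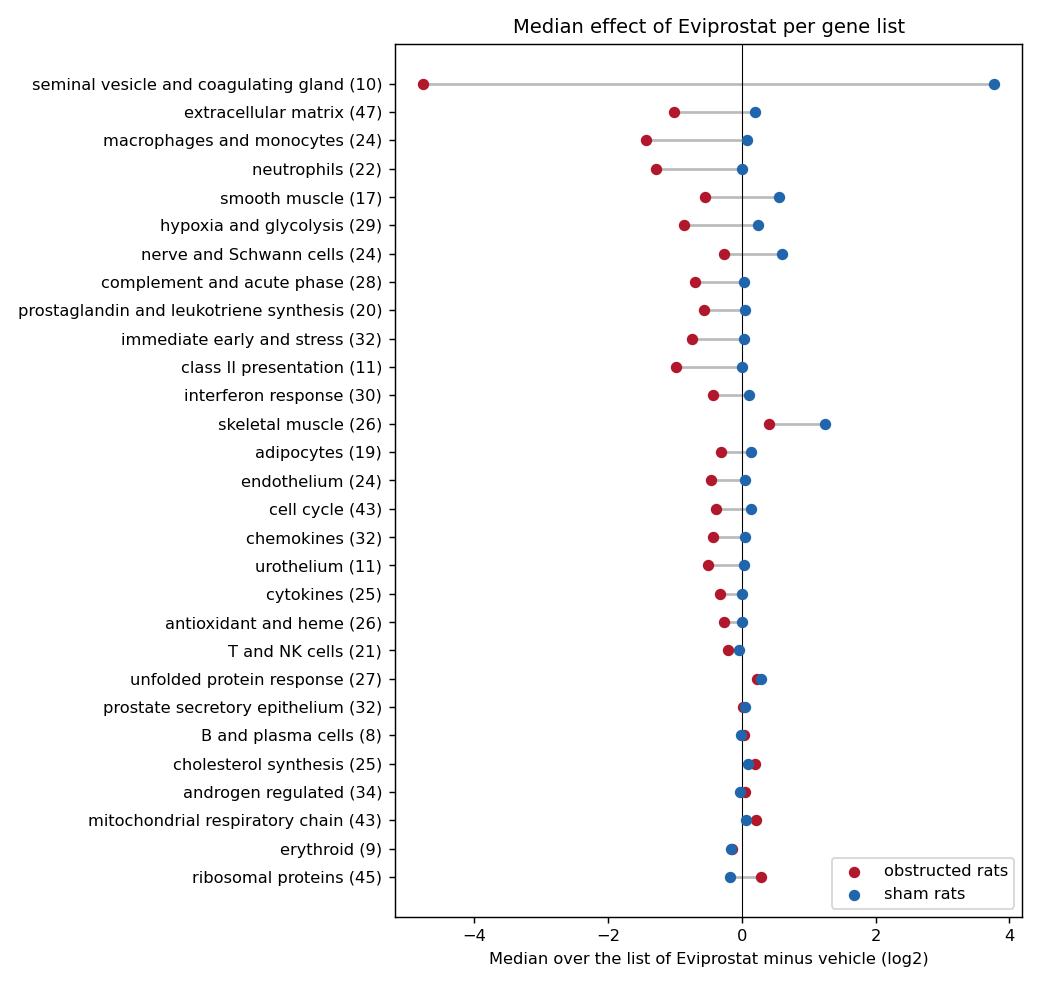
Median log2 difference of Eviprostat minus vehicle over the measured genes of each list (number in parentheses) in obstructed (red) and sham (blue) rats, sorted by the median interaction. The seminal vesicle list stands apart at -4.76 and 3.77, skeletal muscle lies above 0 in both settings at 0.41 and 1.25, and immune lists have sham medians near 0.

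The 11 genes of the reverse pattern were higher with Eviprostat in obstructed rats and lower with it in sham rats. Their median interaction was 1.57, from 0.98 to 4.10, with median drug effects of 0.88 in obstructed and -0.64 in sham rats. None was in a list, and 2 differed at least 2-fold in both settings, Gys2 and Wfdc5. Obstruction/Eviprostat was the highest group for 6 of them. All 11 kept their signs on each slide. Because the genes were chosen on the same contrasts, these summaries support nothing by themselves. Under median centring all 11 failed at least 1 of the 3 limma tests. Gys2, Wfdc5 and Defb1 passed under the other 19 of 20 alternatives, and each of the other 8 failed when at least 1 array was left out.

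Gys2, the liver form of glycogen synthase, had 1.57, 2.28 and 2.24 with Eviprostat and -0.86, -0.11 and -0.46 with vehicle in obstructed rats. Sham rats had -1.46, -1.39 and -1.56 with Eviprostat and -0.15, 0.26 and 0.27 with vehicle. The drug-treated pools were thus the highest and the lowest of the 4, and within each operation the Eviprostat and vehicle arrays did not overlap. The drug effect was 2.51 ± 0.21 in obstructed rats, 5.69-fold, with adjusted p = 1.35e-05, and -1.59 ± 0.21 in sham rats, with adjusted p = 0.00252. The interaction of 4.10 ± 0.30 was 3.73 to 4.53 over the slides, and on Cy5 alone it was 4.13.

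Wfdc5, a WAP domain protein, had 0.08, 0.41 and 0.29 with Eviprostat and -2.17, -1.17 and -1.84 with vehicle in obstructed rats, and -1.63, -1.48 and -1.59 with Eviprostat and 0.17, 0.10 and 0.03 with vehicle in sham rats. It was low in the pools in which its Svs neighbours were high. Defb1, a beta-defensin of epithelia, had 0.43, 0.62 and 0.75 against -0.49, -0.28 and -0.06 in obstructed rats and -1.44, -1.02 and -0.98 against -0.23, 0.16 and 0.10 in sham rats, Eviprostat first. Plac8 had 1.52, 1.60 and 1.61 against 1.02, 1.07 and 1.36, and -1.66, -1.59 and -1.54 against -0.07, 0.04 and 0.04. Plac8 differed from the others in that both obstructed groups lay above both sham groups, and its sham effect of -1.60 ± 0.10 was the larger.

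Smaller effects were those of Slc38a11, of an amino acid transporter family, with 1.21 ± 0.15 in obstructed and -0.79 ± 0.15 in sham rats, and Hapln2, a link protein of hyaluronan matrix, with 0.99 ± 0.12 and -0.57 ± 0.12. Ctla4, an inhibitory receptor of T cells, had 0.91 ± 0.08 and -0.48 ± 0.08, and did not pass on Cy5 alone. Galnt11, which starts O-linked glycosylation, had 0.76 ± 0.11 and -0.51 ± 0.11. Mt3, a metallothionein, had 0.66 ± 0.10 and -0.48 ± 0.10, Pnisr 0.39 ± 0.11 and -0.64 ± 0.11, and the corepressor Tle2 0.52 ± 0.10 and -0.47 ± 0.10. For Mt3 the 3 other groups all lay below sham/vehicle, as for each of the 11 in which obstruction/Eviprostat was not the highest group.

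**Figure D5:**
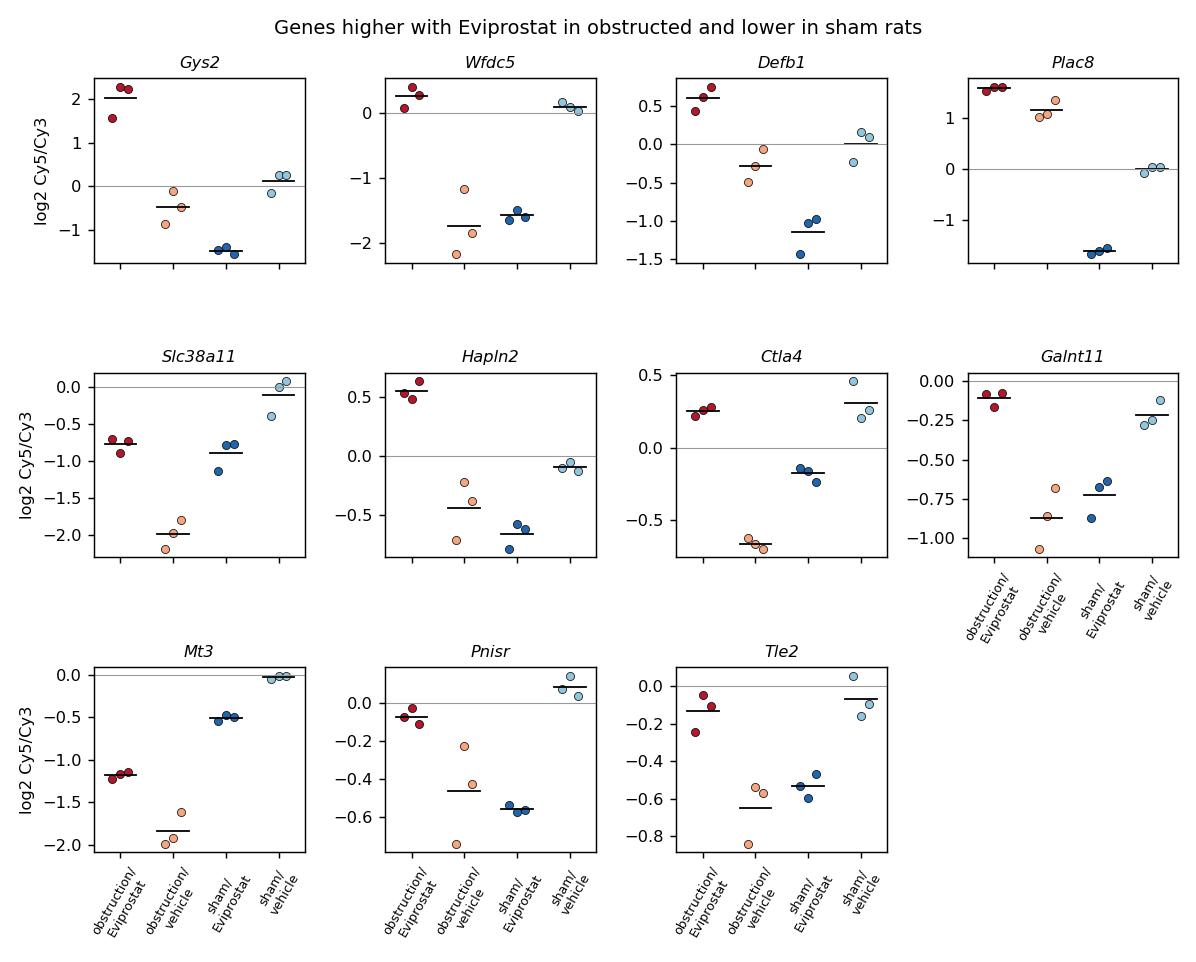
Log2 Cy5/Cy3 on each array (points, 3 per group) and group means (bars) for the 11 genes higher with Eviprostat in obstructed and lower in sham rats. Within each operation the points of Eviprostat and vehicle do not overlap, but the genes were chosen on these same contrasts. The Gys2 means are 2.03, -0.48, -1.47 and 0.13 from left to right.

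Close to the threshold, just inside it were Actg1 (largest of its 3 adjusted p-values 0.0466), Tle2 (0.0473) and Tpm2 (0.0495), and just outside were Pam (0.0526), 2610008E11Rikl (0.0526) and Spink1 (0.0534). Spink1, a trypsin inhibitor, had drug effects of -2.33 in obstructed and 1.55 in sham rats.

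Among the 1494 genes, 1112 (7.6% of genes) had a called drug effect in obstructed rats but not in sham rats, 749 of them lower (5.12% of genes) and 363 higher (2.48%). A sham effect that missed the threshold is not shown to be absent, and with the slide as a block more sham effects were called, as given above. The rule's largest were Cxcl2, G0s2, S100a9, Slpi-ps1, Rims1 and Or2n1j on the lower side. Cxcl2, a neutrophil chemokine, had 0.14, 0.32 and 0.32 with Eviprostat and 7.49, 6.71 and 7.73 with vehicle in obstructed rats, and -0.10, 0.21 and 0.29 with Eviprostat and -0.06, 0.09 and 0.07 with vehicle in sham rats. Its interaction of -7.14 ± 0.29 therefore equalled its obstructed effect of -7.05 ± 0.21 within the error. The sham effects of Slpi-ps1, Rims1 and Or2n1j were 1.00 to 1.36, opposite in sign, with adjusted p of 0.102 to 0.167.

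Beside 6.9% of all genes, the interaction was lower for 12 of 32 chemokines, 15 of 24 macrophage genes, 9 of 22 neutrophil genes and 4 of 25 cytokines. With the slide as a block these were 15, 21, 13 and 8, beside 2239 of all genes. The median drug effects of these lists were -0.43, -1.43, -1.27 and -0.32 in obstructed rats, and their sham medians lay between 0.00 and 0.08. Il1b had -0.11, 0.17 and -0.03 with Eviprostat and 3.31, 3.64 and 3.92 with vehicle in obstructed rats, and -0.11, -0.24 and -0.20 with Eviprostat and 0.03, -0.08 and -0.05 with vehicle in sham rats. Ccl2 had an interaction of -3.33 ± 0.72, Timp1, a metalloproteinase inhibitor, -2.11 ± 0.16 and Hmox1, heme oxygenase, -2.32 ± 0.16. Il6 and Tnf were not called, at -1.42 and 0.01, with adjusted p of 0.0752 and 0.98. Il6 was called with the slide as a block (adjusted p = 0.0181), without obstruction/vehicle replicate 2 (-1.95), on Cy5 alone (-2.00), without background correction (-0.79) and by the scanner software's log ratio (-4.07), and the sign of Tnf changed between settings.

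On the higher side of that class were Mmp7, Slc2a5, Teddm3, Sult1b1, Wfdc3 and Abcg5. Mmp7, matrilysin, had 3.14, 3.37 and 3.27 with Eviprostat and -0.24, -0.17 and 0.07 with vehicle in obstructed rats, and 0.10, 0.12 and a value near 0 with Eviprostat and 0.01, 0.13 and 0.05 with vehicle in sham rats. It was high in the drug-treated obstructed pool and in no other. Slc2a5, the fructose transporter, had drug effects of 1.89 ± 0.21 in obstructed and -0.52 ± 0.21 in sham rats, where its adjusted p was 0.384. Of 45 ribosomal protein genes the interaction was higher for 9, beside 3.31% of all genes, or 26 with the slide as a block, beside 1464 of all genes, with a list median of 0.46 beside -0.02 over all genes.

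In sham rats alone the drug effect was called for 92 genes of the 1494 (0.629% of genes), 79 with a lower interaction (0.54% of genes) and 13 with a higher (0.0888%). The rule's largest were Nefm, Degs2, Vip, Myl3, Fgf13 and Havcr1 on the lower side. Nefm, a neurofilament, had 0.65, 1.18 and 1.03 with Eviprostat and 2.04, 0.96 and 2.29 with vehicle in obstructed rats, and 1.59, 2.01 and 2.17 with Eviprostat and -0.14, -0.03 and 0.02 with vehicle in sham rats. Its obstructed groups overlapped and its sham groups did not. Havcr1, the kidney injury molecule, had -0.27 ± 0.10 in obstructed rats, where its adjusted p was 0.133, and rose by 1.56 ± 0.10 in sham rats. On the higher side Sv2b, a synaptic vesicle protein, had -0.29 ± 0.21 in obstructed and -1.74 ± 0.21 in sham rats, and Myo5c, a motor of secretory vesicles, 0.53 ± 0.17 in obstructed and -1.07 ± 0.17 in sham rats.

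Only 3 genes, 0.0205%, had both drug effects called in the same direction beside a called interaction. Andpro had 0.13, 0.53 and 0.53 with Eviprostat and -1.21, -0.23 and -0.72 with vehicle in obstructed rats, and 5.02, 5.30 and 5.25 with Eviprostat and -0.30, 0.16 and 0.01 with vehicle in sham rats. It was high in the sham/Eviprostat pool only, which sets it apart from the Svs genes. Abo3, of the ABO glycosyltransferase family, rose by 0.60 ± 0.15 and 1.48 ± 0.15, and Emb, embigin, fell by 0.81 in obstructed and by 1.85 in sham rats.

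The upstream bases of the opposite-direction genes were searched for short motifs on both strands in the 250 bases before the annotated start, from RefSeq promoters on GRCr8. A sequence was found for 44 of the 58 genes and 9 of the 11. TATAAA occurred in 14 of the 44 (31.8%) and 2 of the 9, beside 9.96% of 11814 genes tested. TGTTCT, a core of the androgen response element, occurred in 7 of the 44 (15.9%) and 1 of the 9, beside 12.4%. ACGTG, the core of the hypoxia response element, occurred in 6 of the 44 (13.6%) and 2 of the 9, beside 19.8%. A match is a description of these letters only. The windows of Svs5 (chr3:173415271-173415520) and Scgb1d4 (chr1:215755113-215755362), both on the plus strand of GRCr8, are printed 5′ to 3′ because these genes moved together, with TATAAA in capitals, 28 and 37 bases before the start.
Svs5: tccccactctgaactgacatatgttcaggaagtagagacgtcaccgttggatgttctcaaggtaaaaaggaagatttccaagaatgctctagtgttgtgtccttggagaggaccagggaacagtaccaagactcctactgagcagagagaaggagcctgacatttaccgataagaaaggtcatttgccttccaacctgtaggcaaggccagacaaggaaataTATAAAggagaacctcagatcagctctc
Scgb1d4: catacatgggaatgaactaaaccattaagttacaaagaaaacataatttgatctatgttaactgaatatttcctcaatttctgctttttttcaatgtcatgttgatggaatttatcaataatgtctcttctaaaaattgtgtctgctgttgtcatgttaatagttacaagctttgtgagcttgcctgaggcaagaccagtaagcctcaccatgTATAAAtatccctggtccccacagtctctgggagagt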

How the data were processed

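Gene expression in rat prostate was measured on 12 2-colour Agilent arrays. The deposited scanner files hold raw spot and local background intensity per channel, which per the file headers came from Agilent Feature Extraction 9.5.1.1. The deposited log10 ratio of red over green was background-subtracted and dye-normalized by that software, per the file headers, and the deposited series value table equals it on every array. Per the labels, 300 ng of RNA was labelled for the groups other than sham/vehicle and 1500 ng for sham/vehicle.

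From the intensities, background was corrected with normexp (offset 50) and ratios were normalized within arrays by loess in limma 3.58.1 (R 4.3.3), leaving out control and outlier spots. Of 41012 probes, 36102 with Cy5 well above background on at least 3 arrays were kept. Group means were fitted over all 12 arrays with lmFit and eBayes, with Benjamini-Hochberg adjustment over the kept probes and a threshold of 0.05. Probes were named through RefSeq by accession (10861), symbol (5536), synonym (3703) or the array's own symbol (132), 20780 stayed unnamed, and a gene is its brightest kept probe. The fit was tested on simulated data.

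Genes named by class passed a brightness rule and had 1 interaction sign on all 3 slides. They were the 12 largest interactions in each opposite-direction class, the 6 largest in each direction called in 1 setting only and the 4 largest of the same direction. Up to 4 called members of each list, fixed genes of interest and the remaining opposite-direction genes were named without that filter. Members, lists and tests were chosen with earlier results of these data known. The replicate number is the slide, slide 1 was scanned on another day, and deviations from group means correlated at 0.16 to 0.78 in the 18 same-slide pairs, so the number pairs the arrays. Alternatives were other normalizations, background corrections and filters, Cy5 alone, the slide as a block, slides 2 and 3 only and leaving out each array. Lists are described by counts and medians, with no set test. The number of arrays limits the precision. Some genes that the rule allows are not reported here.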

Additional observations from a re-analysis of the deposited data

Results flagged for a closer look

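The difference between the drug effects of the 2 settings itself passed limma's test, with opposite effects in obstructed and sham rats, for each gene named here. Among genes lower with Eviprostat in obstructed and higher in sham rats, the interaction was -13.39 for Svs5, -11.86 for Serpina5, -11.48 for Svs3a and -11.01 for Svs6. It was -9.34 for Scgb1d4, -9.02 for Scgb1d2, -7.77 for Slpi and -7.68 for Wfdc21. It was -7.57 for Svs4, which rested on Cy3, -7.48 for Qsox1, -6.47 for Sbp and -6.41 for Klk1c9. Among genes of the reverse pattern it was 4.10 for Gys2, 3.65 for Wfdc5, 2.03 for Defb1 and 2.03 for Plac8. It was 1.99 for Slc38a11, 1.57 for Hapln2, 1.39 for Ctla4 and 1.28 for Galnt11, with 1.14 for Mt3, 1.04 for Pnisr and 0.98 for Tle2.

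The Cy3 channel, which carried the same RNA on every array, gave a signal of its own. It was at least 2-fold higher on obstruction/vehicle than on sham/vehicle arrays for 79 of 36102 probes, and Cy5 was at least 2-fold higher for all 79 of them. The number was 6 on sham/Eviprostat and 7 on obstruction/Eviprostat arrays.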

How the results depend on the processing

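Counts are given as probes with a higher and a lower interaction, then as genes lower in obstructed and higher in sham rats and the reverse; with loess they were 1363, 1764, 58 and 11. Median centring gave 107, 910, 25 and 0, with 89.5% of called probes lower in place of 56.4%, and 74 named genes lost their call. The scanner software's log ratio gave 6538, 5175, 506 and 199, with 44.2% lower. No background correction gave 2509, 3321, 91 and 39. Cy5 alone gave 1943, 2686, 113 and 29. With the replicate block, which pairs arrays by slide, they were 3807, 4114, 233 and 93. Slides 2 and 3 alone gave 2016, 2249, 101 and 32. The cause of these shifts was not tested. Leaving out 1 array gave 714 to 2458, 1105 to 3399, 35 to 128 and 4 to 32. Without obstruction/vehicle replicate 2 they were 2458, 3399, 128 and 32. The higher count fell to 714 and 753 without obstruction/Eviprostat replicates 2 and 3, and to 736 and 715 without sham/vehicle replicates 2 and 3. The lower count was 1105, 1128, 1105 and 1123 in those cases, and 1170 without sham/Eviprostat replicate 2. The 58 became 35 without sham/Eviprostat replicate 2 or 3 and 37 without sham/vehicle replicate 3. The 11 became 4 or 5 without obstruction/Eviprostat replicates 2 or 3, sham/Eviprostat replicates 2 or 3 or any sham/vehicle array, and 7 without obstruction/Eviprostat replicate 1. In 20 alternatives all 58 and all 11 kept the sign of their interaction wherever their probe was tested. Signs of the separate drug effects were not compared there. Of the 58, 13 passed limma's 3 tests in all 20, as did 0 of the 11. The 13 were Svs5, Svs3a, Svs6, Serpina5, Slpi, Wfdc21, Scgb1d2, Scgb1d4, Sbp, Klk1, Klk1c2, Klk1c9 and Dnase2b. With Svs1, Svs7, Spink1l and Trpv6, 17 passed wherever their probe was tested. The probes of these last genes were left out by the filter for signal well above background on all 12 arrays. Keeping only probes bright and unsaturated in both channels, chosen after seeing the data, gave 1425, 1680, 52 and 12, with 49 of the 58 and all 11 shared. No called interaction of a named gene changed sign. Pooled tissue and 3 arrays a group limit what the p-values cover.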
